A study of Homo sapiens with 9 samples.

Results

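The genes of cholesterol and fatty acid synthesis were described in AC16 cells treated with CDDO-Me. The group holds 37 genes, taken by symbol from a list of pathway members and matched to the Ensembl IDs of the count table, which lists 58299 genes. All 37 were in the table and all 37 passed the filter on low counts, which left 14965 genes to test. They were split into a sterol branch of 24 genes and a fatty acid branch of 13 genes. AC16 is a proliferating human line made by fusing adult ventricular heart cells with SV40-transformed fibroblasts, and CDDO-Me, also named bardoxolone methyl, is a triterpenoid drug known to activate the transcription factor NRF2. Polyadenylated RNA was sequenced from 3 groups of 3 libraries. They were AC16 cells given 100 nM CDDO-Me for 72 h, AC16 cells given 100 nM CDDO-Me for 24 h, and AC16 cells given 0.1% DMSO, the vehicle, for 72 h. No vehicle group of 24 h was analysed here, so CDDO-Me 24 h against DMSO also differs in culture time, and so does CDDO-Me 72 h against CDDO-Me 24 h. In both of these comparisons the effect of treatment and that of culture time cannot be told apart. Whether replicates came from separate cultures is not stated in the labels, and the p-values speak only of the spread among these libraries, which may be technical.

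Cells make cholesterol and fatty acids from cytosolic acetyl-CoA. The transcription factors SREBP-1 and SREBP-2, encoded by SREBF1 and SREBF2, drive many genes of both routes. They are held in the endoplasmic reticulum by INSIG proteins when sterols are plentiful, and are escorted by SCAP to the Golgi for cleavage when sterols are scarce. SREBP-2 is known mainly for sterol genes and SREBP-1 mainly for fatty acid genes. The liver X receptors (LXR), which respond to oxysterols, also raise SREBF1 and some of its targets.

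SREBP binds a sterol regulatory element together with NF-Y, which binds the CCAAT box. The start regions of 4 genes are therefore shown. Of these 4, SREBF2 did not pass the tests below, either with all libraries or without CDDO-Me 24 h replicate 3. They come from the RefSeq promoter windows of build GRCh38.p14, which run from 250 bases before to 50 bases after a gene's start. Each is printed 5′ to 3′ on the gene's own strand, from base -250 up to the base before the first exon of the gene model in the deposited table. The windows lie at chr17:17837003-17837236 on the minus strand (SREBF1), chr22:41832855-41833078 on the plus strand (SREBF2), chr7:155297628-155297775 on the plus strand (INSIG1) and chr10:100346983-100347123 on the plus strand (SCD). Capitals mark exact matches to the classical sterol regulatory element, named SRE-1, and to CCAAT or its reverse complement ATTGG.
SREBF1: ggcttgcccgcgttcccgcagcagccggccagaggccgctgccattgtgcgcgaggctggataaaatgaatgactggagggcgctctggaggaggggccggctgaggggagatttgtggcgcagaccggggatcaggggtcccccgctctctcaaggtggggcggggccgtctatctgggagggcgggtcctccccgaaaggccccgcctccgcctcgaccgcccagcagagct
SREBF2: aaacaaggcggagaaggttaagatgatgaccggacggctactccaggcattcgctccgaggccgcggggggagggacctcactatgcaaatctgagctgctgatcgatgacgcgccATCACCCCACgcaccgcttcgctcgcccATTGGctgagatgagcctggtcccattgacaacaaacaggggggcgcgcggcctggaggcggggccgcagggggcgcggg
INSIG1: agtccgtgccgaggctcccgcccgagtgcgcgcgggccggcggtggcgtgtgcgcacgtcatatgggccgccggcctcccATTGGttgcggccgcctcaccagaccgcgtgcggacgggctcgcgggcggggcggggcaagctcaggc
SCD: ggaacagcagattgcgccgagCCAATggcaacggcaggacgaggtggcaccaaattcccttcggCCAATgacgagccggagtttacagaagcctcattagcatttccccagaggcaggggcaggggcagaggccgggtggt
The SREBF2 window holds SRE-1, the longest run of capitals, from base -134 and a CCAAT box in reverse from base -106. The INSIG1 window holds a reverse CCAAT box from base -170, the SCD window holds CCAAT boxes from bases -229 and -186, and the SREBF1 window holds no match.

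A window was found for 33 of the 37 genes, and both strands were searched. A CCAAT match was present in 16 of 21 sterol genes (76.2%) and 9 of 12 fatty acid genes (75%), against 39.7% of 27305 genes in the table of windows. SRE-1 was present in 1 of 21 sterol genes (SREBF2), in 0 of 12 fatty acid genes and in 0.0586% of all. Its shorter form TCACNCCAC, which overlaps it, matched SREBF2 alone as well, at 4.76% of sterol genes against 1.39% of all genes. The antioxidant response element TGACNNNGC, bound by NRF2, matched 14.3% of sterol genes and 8.33% of fatty acid genes, against 16.1% of all. These matches describe letters in short windows and say nothing of binding.

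Library totals ran from 16898977 to 27910031 counts, the highest in CDDO-Me 24 h replicate 3. That library stood apart from its group. The biological coefficient of variation was 20.9% against replicate 1 and 19.9% against replicate 2, beside 6.38% between those 2 libraries. DMSO replicate 1 stood apart less, at 12.1% and 13.9% against 7.79% between DMSO replicates 2 and 3. The 72 h libraries were close to each other, at 2.73% to 3.31%. Summed over 5 known NRF2 targets (NQO1, GCLM, TXNRD1, SRXN1 and OSGIN1), CDDO-Me 72 h libraries held 6191, 6178 and 6097 CPM (counts scaled to a common library total). CDDO-Me 24 h libraries held 3187, 3424 and 6002 CPM, and DMSO libraries 1336, 1139 and 1262 CPM. The single targets in 24 h replicate 3 were not at the 72 h level. NQO1 had 2169 CPM there, below the 72 h libraries (3306 to 3386 CPM). TXNRD1 had 3162 CPM, above them (2198 to 2342 CPM), and GCLM, SRXN1 and OSGIN1 were above every 72 h library as well. Of 9 heart muscle markers none passed the filter, and MYH6, MYL2, RYR2 and PLN had 0 counts in every library. All 6 fibroblast markers were tested. Their summed level was 15459 to 15864 CPM at 72 h, 11912 to 16648 CPM at 24 h with the lowest in replicate 3, and 13368 to 15233 CPM in DMSO. None of 4 adipocyte or 3 hepatocyte markers passed the filter. The tested markers of endothelial cells summed to at most 1.51 CPM and those of leukocytes to at most 3.19 CPM. In bulk RNA, fewer cells of a type and less RNA per cell cannot be told apart.

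The library that stood apart touches the results below, so counts of called genes in both branches are given with and without it. Summed over the fatty acid branch, CDDO-Me 72 h libraries held 2707, 2706 and 2694 CPM, CDDO-Me 24 h libraries 4651, 4568 and 2825 CPM, and DMSO libraries 3513, 3545 and 3269 CPM. All 3 of the 72 h libraries were therefore below all 3 DMSO libraries, 24 h replicates 1 and 2 were above them, and 24 h replicate 3 was below them. Summed over the sterol branch, CDDO-Me 72 h libraries held 2432, 2397 and 2412 CPM, CDDO-Me 24 h libraries 3165, 3107 and 2497 CPM, and DMSO libraries 2813, 2460 and 2413 CPM. In this branch the 72 h libraries overlapped the DMSO libraries, and DMSO replicate 1 was the highest of its group.

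**Figure D1:**
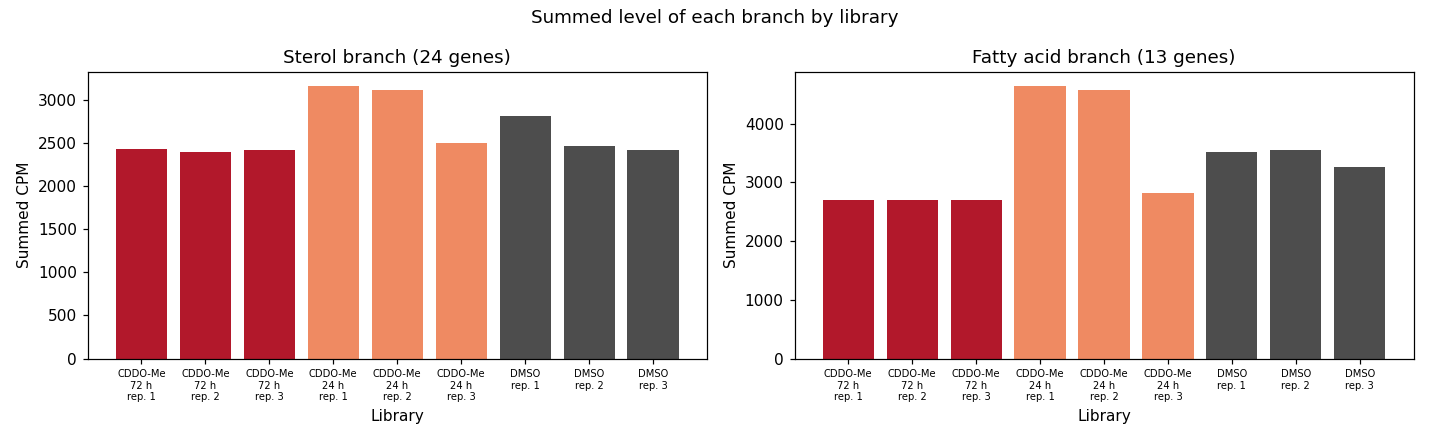
Summed CPM (y axis, from 0) of the 24 sterol genes (left) and the 13 fatty acid genes (right) in each of the 9 libraries (x axis), 1 bar per library. In the fatty acid branch CDDO-Me 24 h replicates 1 and 2 stand at 4651 and 4568 CPM, while replicate 3 (2825 CPM) stands close to the 72 h libraries (2694 to 2707 CPM).

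CDDO-Me 24 h replicate 3 was nearer to the 72 h mean than to the mean of 24 h replicates 1 and 2 in 20 of 24 sterol genes (83.3%) and 12 of 13 fatty acid genes (92.3%), against 63.6% of all tested genes. It was below both other 24 h libraries in 20 sterol genes (83.3%) and 10 fatty acid genes (76.9%), against 42.5% of all tested genes. The nuclear-retained transcripts MALAT1 and NEAT1, listed as signs of RNA quality, moved the same way. Their summed level was 94.6, 67.5 and 59.1 CPM at 72 h, 203 and 217 CPM in 24 h replicates 1 and 2, 63.6 CPM in 24 h replicate 3, and 154, 116 and 80.3 CPM in DMSO. Their part in the results below was not tested.

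**Figure D2:**
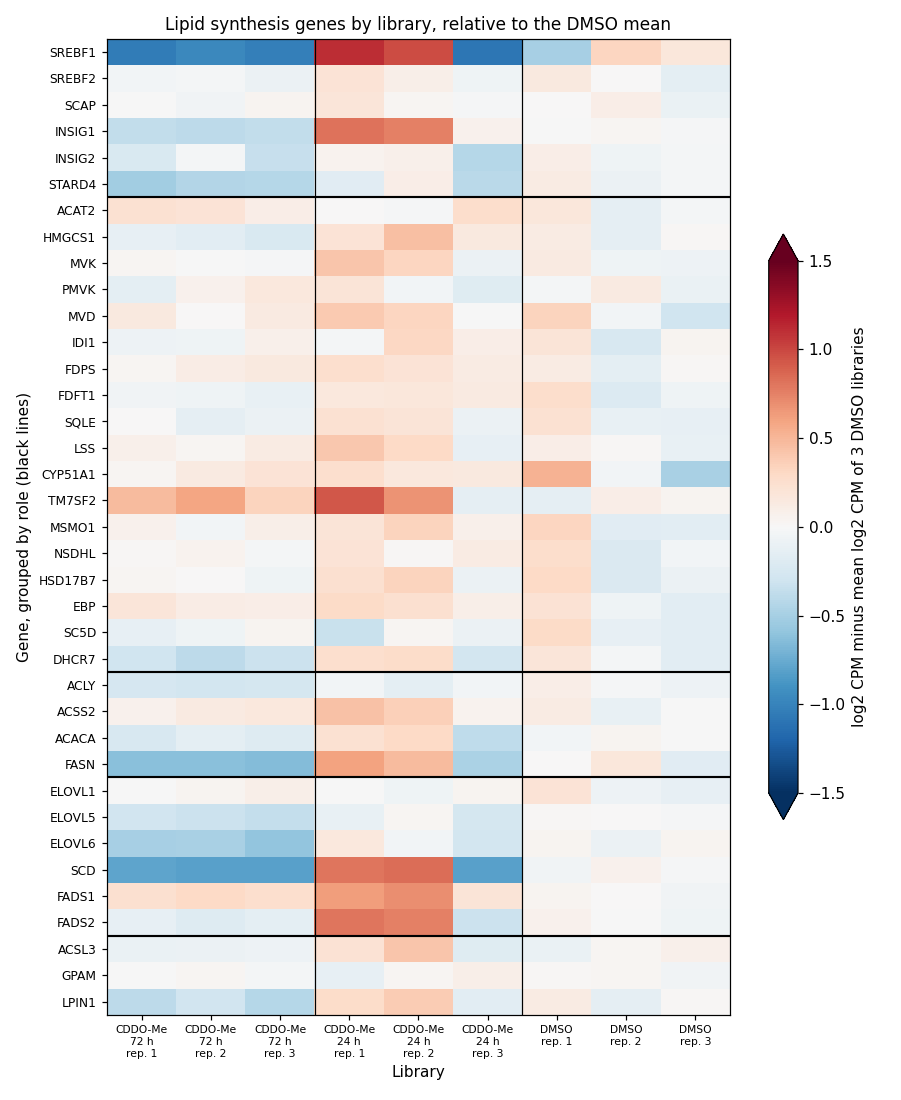
Each of the 37 genes (rows, grouped by role between the black lines) in each of the 9 libraries (columns), coloured by log2 CPM minus the mean log2 CPM of the 3 DMSO libraries. CDDO-Me 24 h replicates 1 and 2 are red in SREBF1, INSIG1, FASN, SCD, FADS1 and FADS2, and replicate 3 has the blue of the 72 h libraries in SREBF1, FASN and SCD.

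A gene was called when its Benjamini-Hochberg adjusted p, over all tested genes, was under 0.05 in edgeR's quasi-likelihood test, and every adjusted p below comes from that test. In the fit of all 9 libraries, CDDO-Me 72 h against DMSO, the comparison at equal time, gave 1 sterol gene lower of 24 and 3 fatty acid genes lower of 13, and 0 higher. Over all tested genes 6.02% were called, 2.89% higher and 3.13% lower. The median log2 fold change was -0.02 in the sterol branch and -0.19 in the fatty acid branch, beside -0.00 over all tested genes. All 3 of the 72 h libraries were below all 3 DMSO libraries in 4 sterol and 8 fatty acid genes and above them in 1 gene of each branch. Groups did not overlap, in either direction, in 30.7% of all tested genes.

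For CDDO-Me 24 h against DMSO, 0 of 24 sterol genes and 1 of 13 fatty acid genes were called, FADS1 as higher, against 2.15% of all tested genes (0.969% higher and 1.18% lower). At an unadjusted p under 0.05, 4 sterol genes and 2 fatty acid genes were higher and none lower, where 12.8% of all tested genes passed (6.59% higher and 6.22% lower). DESeq2 called 1 sterol gene, INSIG1, as higher, where it called 4.13% of all genes (1.85% higher and 2.28% lower). Branch medians were 0.13 and 0.17 for sterol and fatty acid genes, against 0.01 over all genes. For CDDO-Me 72 h against CDDO-Me 24 h, 2 sterol genes and 1 fatty acid gene were lower and none higher, against 1.02% of all tested genes (0.448% higher and 0.568% lower). Branch medians were -0.14 and -0.26, against -0.01 over all genes. The 2 comparisons with DMSO share their DMSO libraries.

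A fit without CDDO-Me 24 h replicate 3, which stood apart, keeps only replicates 1 and 2 of that group. The spread that replicate 3 adds is therefore missing from its SE and adjusted p, here and for the single genes below. CDDO-Me 72 h against DMSO holds no 24 h library, so replicate 3 bears on it only through the fit that the 3 groups share. Without CDDO-Me 24 h replicate 3 the counts were larger in every comparison, and so was the background. At 72 h against DMSO, 1 sterol gene was higher and 4 lower, and 1 fatty acid gene was higher and 6 lower, where 12.9% of 15311 tested genes were called (6.26% higher, 6.62% lower). A fit of only the 72 h and DMSO libraries, which leaves out all of the 24 h group, gave the same count of 12 genes, and all 12 were shared with the fit above (background 12.2% of 14534, with 5.75% higher and 6.47% lower). In this 6-library fit SREBF1 was at -1.06 ± 0.21 (adjusted p 0.0222), FASN at -0.65 ± 0.07 (4.50e-05) and SCD at -0.81 ± 0.06 (2.60e-07). TM7SF2 (0.47 ± 0.12, 0.0231) and FADS1 (0.26 ± 0.06, 0.00707) were the genes called higher. At 24 h against DMSO, 6 sterol and 8 fatty acid genes were higher and none lower, where 10.8% of all genes were called (5.71% higher and 5.11% lower). Branch medians of the log2 fold change were then 0.21 and 0.32 for sterol and fatty acid genes, against 0.00 over all genes. At 72 h against 24 h, 7 sterol and 9 fatty acid genes were lower and none higher, where 12.0% of all genes were called (5.19% higher and 6.84% lower). The medians of that comparison were -0.25 in the sterol and -0.41 in the fatty acid branch, against 0.00 over all genes.

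**Figure D3:**
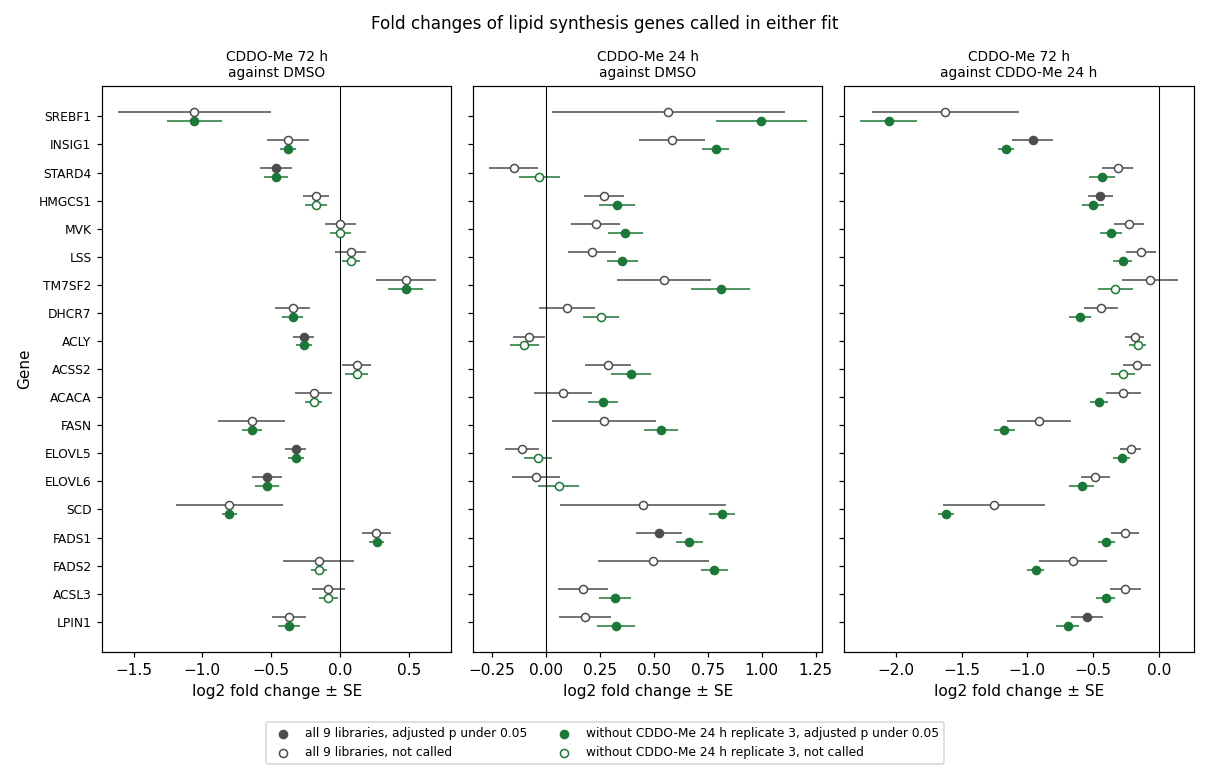
Log2 fold change with its standard error (x axis) of the 19 genes (y axis) called in at least 1 comparison, for CDDO-Me 72 h against DMSO (left), CDDO-Me 24 h against DMSO (middle) and CDDO-Me 72 h against CDDO-Me 24 h (right). Grey points use all 9 libraries and green points leave out CDDO-Me 24 h replicate 3; filled points are called. For SCD at 72 h against 24 h the value is -1.25 ± 0.39 with all libraries and -1.62 ± 0.06 without that library.

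Among the 6 genes that control SREBP, SREBF1 differed most between libraries. It had 55.9, 59.3 and 56.8 CPM in CDDO-Me 72 h libraries, 249, 228 and 54.8 CPM in CDDO-Me 24 h libraries, and 82.3, 145 and 131 CPM in DMSO libraries. The 72 h libraries were all below DMSO, 24 h replicates 1 and 2 were above it, and 24 h replicate 3 was the lowest of the 9. With all libraries no SREBF1 comparison was called: the log2 fold change was -1.06 ± 0.55 (SE) at 72 h against DMSO (adjusted p 0.381), 0.57 ± 0.54 at 24 h against DMSO (0.745) and -1.63 ± 0.56 at 72 h against 24 h (0.304). All 3 were called without 24 h replicate 3, at -1.06 ± 0.20 (adjusted p 0.0154), 1.00 ± 0.21 (0.0291) and -2.05 ± 0.22 (0.00171).

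INSIG1, which retains the SCAP and SREBP complex and is itself a known SREBP target, had 128, 126 and 128 CPM at 72 h. It had 291, 279 and 172 CPM at 24 h and 164, 169 and 163 CPM in DMSO. Its groups did not overlap in any comparison, since 24 h replicate 3 was the lowest of its group and still above DMSO. INSIG1 fell at 72 h against 24 h by 0.96 ± 0.15 on the log2 scale (adjusted p 0.0140). The call ended when 24 h replicate 2 or any 1 of the 72 h libraries was left out (adjusted p to 0.0903). INSIG1 was also called without 24 h replicate 3, at 72 h against DMSO (-0.38 ± 0.06, 0.000162) and at 24 h against DMSO (0.79 ± 0.06, 1.66e-07).

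STARD4, which carries cholesterol between membranes, fell at 72 h. It had 37.7, 40.0 and 40.4 CPM in CDDO-Me 72 h libraries, 48.1, 58.3 and 40.8 CPM in CDDO-Me 24 h libraries, and 59.0, 51.1 and 53.0 CPM in DMSO libraries. All of the 72 h libraries were below all other libraries. The change at 72 h against DMSO was -0.47 ± 0.12 (adjusted p 0.0272). It ended when any 1 DMSO or 72 h library was left out (adjusted p to 0.136) and was -0.46 ± 0.09 (0.00123) without 24 h replicate 3. In that fit STARD4 was also called at 72 h against 24 h (-0.43 ± 0.10, 0.00723). The other 3 control genes were not called in either fit. SREBF2, the most expressed of the 6 per length after INSIG1, had 347 to 359.5 CPM at 72 h, 351 to 425 CPM at 24 h and 332 to 407 CPM in DMSO, and its groups overlapped. SCAP had 90.3 to 96.1 CPM at 72 h, 92.1 to 106 CPM at 24 h and 87.0 to 100.3 CPM in DMSO. INSIG2, a second retention protein, was at 10.3 to 14.8 CPM throughout.

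**Figure D4:**
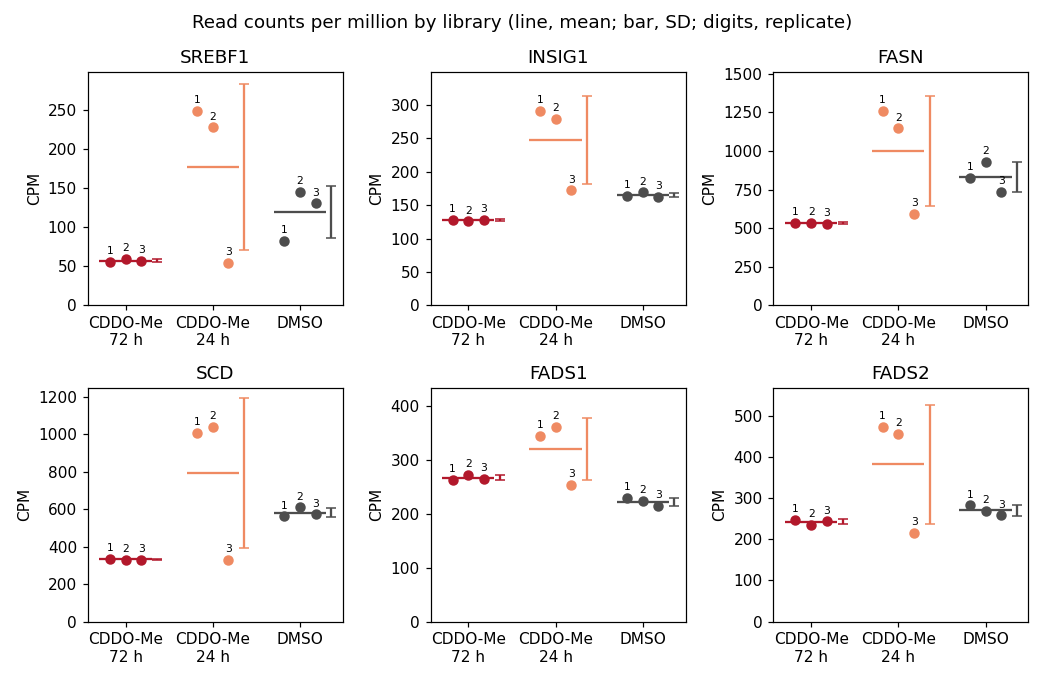
CPM (y axis, from 0) of SREBF1, INSIG1, FASN, SCD, FADS1 and FADS2 in each library, with the mean of 3 libraries as a line, the SD as a bar and the replicate number above each point. SCD stands at 330 to 336 CPM in the 72 h libraries, at 1008 and 1037 CPM in 24 h replicates 1 and 2, at 331 CPM in 24 h replicate 3 and at 560 to 609 CPM in DMSO.

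The 18 sterol synthesis enzymes differed less. HMGCS1, which makes HMG-CoA, the precursor of mevalonate, was called. It had 119, 117 and 111 CPM at 72 h, 150, 178 and 144 CPM at 24 h, and 142, 118 and 132 CPM in DMSO. All of the 24 h libraries were above all other libraries, and the 72 h libraries overlapped DMSO. At 72 h against 24 h HMGCS1 fell by 0.44 ± 0.09 on the log2 scale (adjusted p 0.0336). This call ended when DMSO replicate 3, 24 h replicate 1 or 2, or any 1 of the 72 h libraries was left out (to 0.246). It was at -0.50 ± 0.09 (0.000898) without 24 h replicate 3, and at 24 h against DMSO it passed at 0.33 ± 0.09 (0.0188).

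DHCR7, the last enzyme of one route to cholesterol, had 136, 127 and 134 CPM at 72 h, 200, 202 and 138 CPM at 24 h, and 190, 165 and 150 CPM in DMSO. The 72 h libraries were below all others. It was not called with all libraries (-0.35 ± 0.13, adjusted p 0.158, at 72 h against DMSO). It was called there without 24 h replicate 3 (-0.34 ± 0.07, 0.00435) and at 72 h against 24 h (-0.60 ± 0.08, 0.000113). TM7SF2, a sterol reductase acting after lanosterol, ran the other way at 72 h, with 12.7, 13.8 and 11.5 CPM, beside 17.5, 14.6 and 8.26 CPM at 24 h and 8.27, 9.74 and 9.38 CPM in DMSO. The 72 h libraries were above DMSO, and 24 h replicate 3 (8.26 CPM) was level with DMSO replicate 1 (8.27 CPM). Without 24 h replicate 3 TM7SF2 was called at 72 h against DMSO (0.48 ± 0.12, adjusted p 0.0160) and at 24 h against DMSO (0.81 ± 0.14, 0.000847). With all libraries it was not called (0.261 and 0.288).

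Of the other 15 enzymes none was called with all libraries. MVK, which phosphorylates mevalonate, and LSS, which closes the sterol rings, passed in the fit without 24 h replicate 3. MVK was at 0.37 ± 0.08 (adjusted p 0.00681) and LSS at 0.35 ± 0.07 (0.00354) at 24 h against DMSO, and both were lower at 72 h against 24 h (-0.36 ± 0.08, 0.00739, and -0.28 ± 0.07, 0.0174). The remaining 13 were ACAT2, PMVK, MVD, IDI1, FDPS, FDFT1, SQLE, CYP51A1, MSMO1, NSDHL, HSD17B7, EBP and SC5D, which run from acetoacetyl-CoA through isoprenoids and squalene to the late sterols. None of them was called in either fit.

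DMSO replicate 1 bears on these enzymes. Summed over the 18, CDDO-Me 72 h libraries held 1747, 1709 and 1733 CPM, CDDO-Me 24 h libraries 2030, 2041 and 1776 CPM, and DMSO libraries 1993, 1613 and 1635 CPM. With both DMSO replicate 1 and 24 h replicate 3 left out, 17 of 24 sterol genes were higher at 24 h than in DMSO and none lower, against 8 of 13 fatty acid genes higher, where 22.8% of 15199 tested genes were called (12.0% higher and 10.8% lower). In that fit 5 sterol genes rose and 4 fell at 72 h against DMSO, and 1 fatty acid gene rose and 7 fell, where 17.9% of all genes were called (8.72% higher and 9.20% lower). At 72 h against 24 h, 1 sterol gene rose and 14 fell, and 11 fatty acid genes fell, where 22.8% of all genes were called (10.5% higher and 12.3% lower). The sterol result thus differs with 2 of the 9 libraries, and 2 libraries a group then remain at 24 h and in DMSO. Summed over the 18 enzymes, DMSO replicate 1 was the highest of its group and 24 h replicate 3 the lowest of its group. Leaving both out therefore widens the rise at 24 h against DMSO by the choice of libraries. Reads of CYP51A1 and ACAT2 are uncertain, since 82.2% and 52.3% of their exon bases overlap other genes. The kit does not keep the strand, and of the 2 genes that overlap CYP51A1 only 1 lies on the opposite strand. The overlap was 18.6% for FDPS, 15% for HMGCS1 and 14.8% for IDI1. FDPS has 8 named pseudogenes, and IDI1 and CYP51A1 have 3 each.

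In the fatty acid branch, supply and synthesis start with ACLY, which makes cytosolic acetyl-CoA from citrate. ACLY was the most expressed of the 37 genes, at 564 TPM (a level per transcript length, scaled to a common total) averaged over the 9 libraries. It had 613, 606 and 610 CPM at 72 h, 709, 659 and 713 CPM at 24 h, and 786, 720.2 and 692 CPM in DMSO, so that the 72 h libraries were the lowest. ACLY fell at 72 h against DMSO by 0.27 ± 0.07 on the log2 scale, at an adjusted p of 0.04997, just under the threshold. The call ended when any 1 library other than DMSO replicate 3 or 24 h replicate 3 was left out (adjusted p to 0.205). It was -0.26 ± 0.06 (0.00569) without 24 h replicate 3.

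FASN, which builds palmitate, had 536, 534 and 526 CPM at 72 h, 1261, 1147 and 594 CPM at 24 h, and 828, 929 and 735 CPM in DMSO. The 72 h libraries were the lowest, 24 h replicates 1 and 2 the highest, and 24 h replicate 3 lay between the 72 h and DMSO libraries. With all libraries FASN was not called (-0.64 ± 0.24 at 72 h against DMSO, adjusted p 0.198). It was called without 24 h replicate 3 in all 3 comparisons, at -0.64 ± 0.07 for 72 h against DMSO (5.41e-06), 0.53 ± 0.08 for 24 h against DMSO (0.000290) and -1.18 ± 0.08 for 72 h against 24 h (1.61e-08). ACACA, the acetyl-CoA carboxylase that commits carbon to fatty acids, had 90.5, 97.0 and 94.0 CPM at 72 h, 125, 132 and 82.3 CPM at 24 h, and 105, 110 and 107 CPM in DMSO. It was called only without 24 h replicate 3, at 24 h against DMSO (0.26 ± 0.07, adjusted p 0.0196) and at 72 h against 24 h (-0.45 ± 0.07, 0.000306). ACSS2, which makes acetyl-CoA from acetate, was called only at 24 h against DMSO in that fit (0.39 ± 0.09, 0.00931).

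Among the 6 elongases and desaturases the responses were uneven. SCD, FADS1 and FADS2 were above every DMSO library in both 24 h replicate 1 and 24 h replicate 2. None of the elongases was above every DMSO library in both. SCD, the stearoyl-CoA desaturase that makes oleate, had 336, 331 and 330 CPM at 72 h, 1008, 1037 and 331 CPM at 24 h, and 560, 609 and 572 CPM in DMSO. The value of 24 h replicate 3 lay within the range of the 72 h libraries. SCD was not called with all libraries (-0.80 ± 0.39, adjusted p 0.331, at 72 h against DMSO). Without 24 h replicate 3 it was called at 72 h against DMSO (-0.80 ± 0.06, 8.29e-09), at 24 h against DMSO (0.82 ± 0.06, 7.66e-08) and at 72 h against 24 h (-1.62 ± 0.06, 7.09e-12).

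FADS1 and FADS2 are neighbouring desaturases of polyunsaturated fatty acids, and 5.57% and 4.89% of their exon bases overlap other genes, which include each other. FADS1 had 263, 272 and 264 CPM at 72 h, 344, 360 and 253 CPM at 24 h, and 229, 224 and 214 CPM in DMSO. Every treated library was above every DMSO library. FADS1 rose at 24 h against DMSO by 0.52 ± 0.11 (adjusted p 0.0169). The call was lost without DMSO replicates 2 or 3 or 24 h replicates 1 or 2 (up to 0.0896), and stood at 0.66 ± 0.06 (1.66e-06) without 24 h replicate 3. At 72 h against DMSO it was at 0.26 ± 0.11 (0.187), and passed without 24 h replicate 3 (0.26 ± 0.06, 0.00398). At 72 h against 24 h FADS1 was at -0.26 ± 0.11 (0.313), and was called as lower without that library (-0.40 ± 0.06, 0.000418).

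FADS2 had 247, 236 and 244 CPM at 72 h, 473, 456 and 216 CPM at 24 h, and 282, 269.8 and 258 CPM in DMSO. Unlike FADS1, it was lower in every 72 h library than in every DMSO library, by values that were not called in either fit (-0.16 ± 0.06, adjusted p 0.0858, without 24 h replicate 3). At 24 h against DMSO it was at 0.50 ± 0.26 (0.490) with all libraries and at 0.78 ± 0.06 (2.35e-07) without replicate 3. At 72 h against 24 h it was at -0.66 ± 0.26 (0.335) with all libraries and fell by 0.94 ± 0.06 (1.61e-08) without replicate 3. FADS1 and FADS2 were not tested against each other.

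The elongases ELOVL5, which acts on polyunsaturated fatty acids, and ELOVL6, which extends palmitate, both fell at 72 h. ELOVL5 had 190, 186 and 180 CPM at 72 h, 214, 237 and 192 CPM at 24 h, and 234, 233 and 229 CPM in DMSO. ELOVL6 had 26.5, 26.7 and 24.8 CPM at 72 h, 42.1, 36.4 and 31.0 CPM at 24 h, and 38.8, 35.3 and 38.7 CPM in DMSO. In both genes the 72 h libraries were below all others. The changes against DMSO were -0.32 ± 0.08 for ELOVL5 (adjusted p 0.0258) and -0.53 ± 0.11 for ELOVL6 (0.0103). The ELOVL5 call ended when any 1 DMSO or 72 h library was left out (adjusted p to 0.145), and the ELOVL6 call only without 72 h replicate 3 (0.0696). Without 24 h replicate 3 both held at 72 h against DMSO (0.00105 and 0.000384). Both were then also called at 72 h against 24 h (-0.28 ± 0.07, 0.00913, and -0.59 ± 0.10, 0.000659). ELOVL1, which extends long saturated chains, had 150 to 161 CPM at 72 h, 145 to 156 CPM at 24 h and 139 to 174 CPM in DMSO, and was not called.

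Of the genes that activate fatty acids and build glycerolipids, LPIN1 was called. LPIN1, a phosphatidate phosphatase, had 43.8, 47.3 and 42.9 CPM at 72 h, 69.7, 75.2 and 51.7 CPM at 24 h, and 62.6, 52.3 and 58.3 CPM in DMSO. The 72 h libraries were below all others. LPIN1 fell at 72 h against 24 h by 0.55 ± 0.12 on the log2 scale (adjusted p 0.0478). This call ended when any 1 library other than DMSO replicate 1 or 24 h replicate 3 was left out (adjusted p to 0.280), and was -0.69 ± 0.09 (4.77e-05) without 24 h replicate 3. In that fit LPIN1 was also called at 24 h against DMSO (0.33 ± 0.09, 0.0233). It was called there at 72 h against DMSO as well (-0.37 ± 0.08, 0.00452). ACSL3, an acyl-CoA synthetase, was called only without 24 h replicate 3, at 0.32 ± 0.07 for 24 h against DMSO (0.00987) and -0.41 ± 0.07 for 72 h against 24 h (0.00180). GPAM, which starts glycerolipid synthesis in mitochondria, had 29.1 to 33.7 CPM over all 9 libraries and was not called.

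By level per length, averaged over the 9 libraries, ACLY (564 TPM) was followed by SCD (464 TPM) and FASN (367 TPM). In DMSO these 3 genes had 618 ± 33.9, 476 ± 25.5 and 390 ± 47.0 TPM (SD, n = 3), in that order and with no overlap between the 3 genes. ELOVL1, ELOVL5, INSIG1 and SREBF2 came next at 213 to 263 TPM. GPAM (13.9 TPM) and CYP51A1 (9.37 TPM) were the lowest, and the smallest count of any of the 37 genes in a library was 119, for CYP51A1.

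Around these genes, 7 lists of related genes were counted in the fit of all libraries. ME1, the cytosolic malic enzyme that makes NADPH for fatty acid synthesis, rose at both times. It had 98.4, 99.5 and 95.1 CPM at 72 h, 69.3, 77.3 and 96.0 CPM at 24 h, and 50.1, 54.4 and 55.2 CPM in DMSO. Every treated library was above every DMSO library, and 24 h replicate 3 was at the 72 h level here too. The changes were 0.87 ± 0.10 at 72 h (adjusted p 0.000135) and 0.61 ± 0.10 at 24 h (0.00628), and both held without any 1 of the 9 libraries. Among its list of 14 elongation partners and supply genes, MID1IP1, which helps acetyl-CoA carboxylase to polymerise, fell at 72 h against 24 h by 0.60 ± 0.12 (0.0219), a call that ended in 6 of 9 fits with 1 library left out (to 0.150) and held without 24 h replicate 3 (2.20e-05). No other gene of that list was called.

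Of 12 activation, glycerolipid and droplet genes, PLIN2, a lipid droplet coat protein, was the one called, and it was lower at both times. It had 55.8, 54.5 and 52.4 CPM at 72 h, 53.3, 51.0 and 57.4 CPM at 24 h, and 66.3, 69.2 and 68.3 CPM in DMSO, with no overlap. The changes were -0.32 ± 0.08 at 72 h (adjusted p 0.0238) and -0.33 ± 0.08 at 24 h (0.0386). Leaving out 1 library ended the call in 5 and 7 of 9 cases (up to 0.145 and 0.157), and both held without 24 h replicate 3.

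Of 9 tested fatty acid oxidation genes, SLC25A20, the mitochondrial carrier of acylcarnitine, rose at 72 h against 24 h by 0.71 ± 0.13 (adjusted p 0.0150), and this call ended when 24 h replicate 2 or any 1 of the 72 h libraries was left out (to 0.120) and held without 24 h replicate 3 (0.00342). CPT1A, which makes acylcarnitine, had 20.5, 21.9 and 24.0 CPM at 72 h, 10.7, 8.51 and 18.6 CPM at 24 h, and 14.9, 11.7 and 11.3 CPM in DMSO. It was not called with all libraries (0.81 ± 0.23, 0.0686, at 72 h against DMSO). Without 24 h replicate 3 it was at 0.81 ± 0.12 (0.000210).

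Of 10 genes for SREBP processing and degradation, SEC23A, a coat protein of vesicles that leave the endoplasmic reticulum, fell at 72 h against DMSO (-0.30 ± 0.08, adjusted p 0.0370), which ended in 6 of 9 fits with 1 library left out (to 0.199) and held without 24 h replicate 3 (0.00664). Of 11 sterol transport and storage genes, GRAMD1B, which moves cholesterol from the plasma membrane, fell at 72 h against DMSO (-0.59 ± 0.14, 0.0239), which ended in 4 such fits (to 0.133) and held without that library (0.00504). None of 5 tested LXR genes or 9 isoprenoid users was called in any comparison. NR1H2 and NUS1 were the most expressed of these lists. Without 24 h replicate 3, 3 of the 5 LXR genes were higher at 24 h than in DMSO (NR1H3, ABCA1 and LPCAT3), where 5.71% of all genes were. In that fit 3 of the 5 were lower at 72 h than at 24 h (ABCA1, MYLIP and LPCAT3), where 6.84% of all genes were, and 0 were called at 72 h against DMSO.

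ABCA1, an LXR target that exports cholesterol, had 3.34, 1.96 and 3.04 CPM at 72 h, 9.61, 11.95 and 3.03 CPM at 24 h, and 0.569, 3.80 and 3.43 CPM in DMSO. Like SREBF1 and SCD, it was high in 24 h replicates 1 and 2 and not in replicate 3. Its change at 24 h against DMSO was 1.63 ± 0.66 (adjusted p 0.341) with all libraries and 2.04 ± 0.52 (0.0459) without replicate 3.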

How the data were processed

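Per the labels' protocols, the 9 AC16 libraries were made from poly(A) RNA with the unstranded TruSeq RNA v2 kit. The authors deposited raw read counts as whole numbers, 1 row per Ensembl gene. Per the submitters' processing notes, the builds were hg38 and GRCh38, and the tools were STAR, SAMtools and featureCounts of Subread. The annotation release, strand setting and treatment of multiply matching reads were not given in the sources used here. All treated libraries were taken as CDDO-Me, the name in the treatment label, although some titles and the design text write CDDO. Groups came from the labels and all 9 columns were matched by name.

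Gene symbols were found for 57717 of 58299 IDs. Counts were tested in edgeR 4.0.16 (R 4.3.3; quasi-likelihood, robust, TMM scaling, filterByExpr) in 1 fit of 3 group means over 9 libraries, with 6 residual degrees of freedom and a common biological coefficient of variation of 11.5%. The standard error (SE) was derived from the size of the log2 fold change and the F statistic of its test. Log2 CPM by library used a prior count of 2, and TPM used the exon length of the deposited table. No pair of replicates agreed within sampling noise: the chi-square per degree of freedom was 2.09 or more. At these depths 3 counts equal 0.107 to 0.178 CPM, a limit for counting error only. Alternatives were DESeq2 1.42.0, limma-voom (limma 3.58.1), other scaling, no filter, 2 groups alone, a replicate block and libraries left out.

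The members, lists, tests and named genes were chosen with earlier results of these data known. The rule names every member called in any comparison, the 4 most expressed members not called (SCD, FASN, ELOVL1 and SREBF2), and of each other list up to 3 called genes or else the most expressed. The result of 1 further list is not reported here. SREBF1, FADS2, ACACA, ACSS2, ACSL3, DHCR7, TM7SF2, MVK, LSS, CPT1A, NR1H3, ABCA1, MYLIP and LPCAT3 were singled out after their values were seen.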

Additional observations from a re-analysis of the deposited data

Results flagged for a closer look

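In 3 genes the changes at 72 h and at 24 h, each against the same DMSO libraries, differed by the test of CDDO-Me 72 h against CDDO-Me 24 h. INSIG1 was at -0.96 on the log2 scale in that test, HMGCS1 at -0.44 and LPIN1 at -0.55. All 3 were above DMSO in the mean at 24 h and below it in the mean at 72 h. Culture time differs between the 72 h and 24 h groups as well and cannot be told apart from treatment time.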

How the results depend on the processing

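Leaving out 1 library at a time gave 0 to 5 sterol and 0 to 7 fatty acid genes at 72 h against DMSO, 0 to 6 and 0 to 8 at 24 h against DMSO, and 0 to 7 and 0 to 9 at 72 h against 24 h, with every maximum in the fit without CDDO-Me 24 h replicate 3. With DMSO replicate 1 left out as well, the counts were 9 and 8, 17 and 8, and 15 and 11 in the same order. With only the 2 groups compared, 5 sterol and 7 fatty acid genes were called at 72 h against DMSO, 0 fatty acid genes at 24 h against DMSO and 0 at 72 h against 24 h. With no filter, 3 sterol genes were called at 72 h, 2 at 24 h, and 2 fatty acid genes at 72 h against 24 h. DESeq2 called 1 sterol gene at 24 h and 3 fatty acid genes at 72 h against 24 h, where limma-voom called 0. DESeq2 size factors moved no count by over 1.5 times. The sign of ACACA at 24 h against DMSO turned without 24 h replicate 1 (-0.00140) or replicate 2 (-0.0584), neither called, and it was 0.26 without replicate 3. Single genes were recomputed only in comparisons called with all libraries or without 24 h replicate 3. Of those values, 533 kept their direction and their side of the threshold, 90 passed it newly, 47 no longer passed and 2 changed sign. The 90 include values from the fit without 24 h replicate 3, by which genes were chosen. Deviations of same-numbered libraries had correlations of -0.03 to 0.08, beside -0.11 to 0.04 for libraries of different number. With 3 libraries a group these values cannot decide whether the numbers pair the samples. With the replicate block, fatty acid genes called at 72 h against 24 h numbered 2. The smallest count of any of these genes in a library was 119, and the part of depth in the results was not tested.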

Other observations

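Genes beside the named ones also differed in the fit without CDDO-Me 24 h replicate 3. ACSL4, which activates arachidonate, had 219, 221 and 228 CPM at 72 h, 179, 201 and 249.6 CPM at 24 h, and 250.4, 288 and 269 CPM in DMSO, so that every treated library was below every DMSO library. Its log2 fold changes were -0.27 ± 0.07 at 72 h against DMSO (edgeR adjusted p 0.00890) and -0.50 ± 0.07 at 24 h against DMSO (0.000281), and with all 9 libraries they were not called (0.149 and 0.106). NPC1, which exports cholesterol from lysosomes, had 92.2 and 92.7 CPM in 24 h replicates 1 and 2 and 68.1 CPM in replicate 3, beside 68.9 to 72.4 CPM at 72 h and 65.5 to 76.7 CPM in DMSO. It was called higher at 24 h than in DMSO in that fit (0.40 ± 0.08, 0.00316) and not with all libraries (0.312). These genes were singled out after their values were seen.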
